A study of Arabidopsis thaliana with 12 samples.

Results

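In leaves of the Arabidopsis thaliana mutant cs26, 93 of 22746 probe sets were higher than in wild type in long days and differed little from it in short days. They were chosen by their values. The mean of the 3 cs26 arrays lay at least 1.2 log2 units above the wild-type mean in long days with no overlap of the arrays, and the difference in short days lay between -0.3 and 0.3. The long-day and short-day differences between cs26 and wild type are therefore a description of the set, with no test. The rule found 96 probe sets, of which 3 for cytosolic ribosomal proteins were left out and 0 were plastid genes. The annotation names 1 gene for 47 of the 93, several genes for 2, and no gene for 44.

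The mutant is a SALK line in the Col-0 background, and the series title gives the product of CS26 as an S-sulfocysteine synthase of the chloroplast. The study measured 4 groups of 3 arrays each: wild type and cs26 in long days (16 h light, 8 h dark, 3-week-old plants) and both again in short days (8 h light, 16 h dark, 5-week-old plants). All plants grew on soil watered with Hoagland medium, with days of 20 °C and nights of 18 °C. Photoperiod and age changed together and cannot be told apart, and all mutant plants came from a single insertion line. The design text calls the arrays biological replicates. Their number limits the precision of every value. In whole leaves, a change in the number of cells of a type and a change of RNA per cell also cannot be told apart.

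The values are log2 RMA intensities, so a difference of 1 is a doubling. Levels of different probe sets are not compared with each other, because each probe set has its own affinity. A level of CS26 as a check of the genotypes was not analysed here. LHCB4.2, a light-harvesting protein of mesophyll chloroplasts, fell by 1.32 in cs26 in long days (limma, adjusted p = 2.505e-07), while the short-day means were 13.25 and 13.18. The gene lists used below matched 4 other leaf cell markers, 1 per cell type, and 0 of the epidermis. Other planned markers were not matched, so a cell type rests on 1 gene. The trichome gene TRY fell in cs26 in long days (-0.48, limma, adjusted p = 0.0392) and rose in short days (0.97, adjusted p = 0.001006). FMA, SWEET11 and AUR1, of guard cells, phloem and dividing cells, differed by -0.03, -0.06 and 0.38 in long days without passing the test. The 27 Bacillus control probe sets had long-day means of 6.73 in wild type (array means from 6.68 to 6.81) and 6.29 in cs26 (from 6.19 to 6.37). Their short-day means were 5.47 and 5.70. On the 25S ribosomal RNA control, replicate 2 of wild type in long days stood apart from all other arrays, and without it the rule found 91 probe sets, 86 of them among the 93. Leaving out replicate 2 of cs26 in short days kept the fewest of the 93, 81 of the 97 then found. The part of the cell markers and the controls in the results below was not tested.

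Leaves under stress make transcripts of several kinds at once. Receptors and resistance proteins sense attack or damage, transcription factors pass signals on, and secreted proteins such as chitinases, thaumatin-like proteins and peroxidases act in the cell wall and the space between cells. Enzymes such as cytochromes P450, beta-glucosidases and glutaredoxins make or activate small molecules or adjust the redox state of proteins. The families named below are background knowledge of the Arabidopsis genome, since most of these genes carry only a locus number in the annotation and the gene table.

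In all, 538 probe sets outside the plastid genome and the left-out ribosomal genes met the long-day part of the rule, 2.4% of all probe sets with those genes counted. Of these 538, 422 (78.4%) lay below the short-day band, that is, lower in cs26 by more than 0.3 in short days, and 23 lay above it. The 93 in the band make up 17.3%, whereas 74.2% of all probe sets lay in that band. The median long-day difference was 1.53 among the 93 and 1.84 among the 422. For each probe set the wild-type mean in long days was also taken from that in short days. The median of these differences was 0.29 among the 93, against 1.53 among the 422. These medians describe sets cut by the same arrays, and no test compares them.

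**Figure D1:**
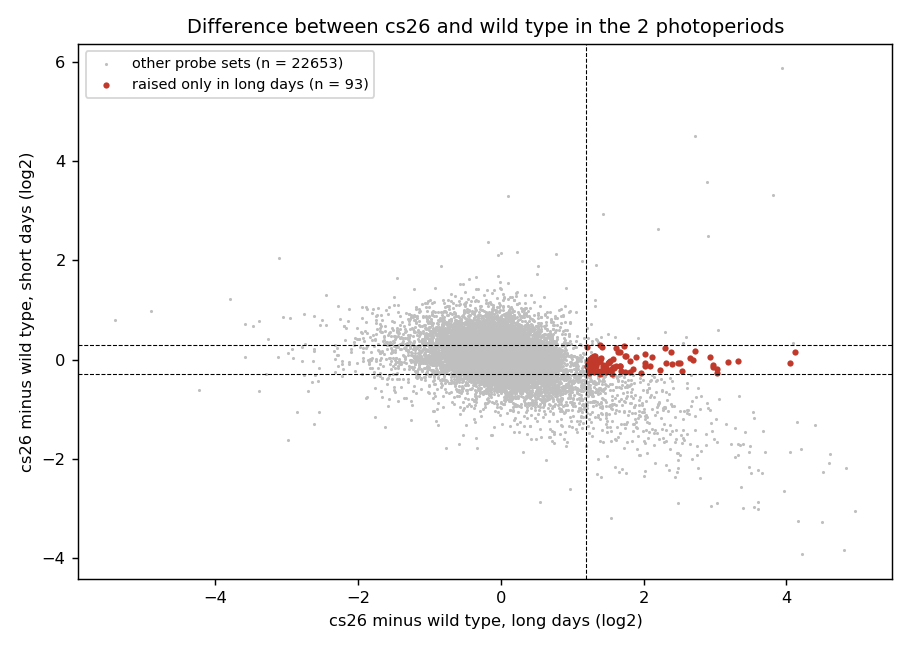
Each point is a probe set, with the cs26 minus wild type difference of group means in long days on the x axis and in short days on the y axis (log2). The 93 red points lie right of 1.2 and between -0.3 and 0.3 by the rule (dashed lines), while most other points right of 1.2 lie below the band.

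Within the set, the long-day difference ran from 1.21 to 4.12, or 2.31-fold to 17.4-fold, with 25 probe sets at 2 or more and 43 under 1.5. Nonoverlapping cs26 arrays above wild type were found in 18.9% of all probe sets in long days. The short-day difference had a median of -0.08, with 66 probe sets below 0 and 27 above. In 11 of the 93 the short-day arrays of the genotypes did not overlap either, where 15% of all probe sets had cs26 above wild type and 14.8% had it below. The median over the 93 probe sets was 5.36, 5.36 and 5.44 on the wild-type long-day arrays and 7.44, 7.51 and 7.53 on the cs26 long-day arrays. It was 5.96, 6.05 and 6.06 in wild type and 6.13, 5.88 and 6.03 in cs26 in short days. The cs26 long-day arrays were the highest, and the short-day arrays of the genotypes overlapped.

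The largest difference belonged to an unnamed probe set, 263979_at, with a mean of 4.45 in wild type and 8.58 in cs26 in long days. Among named genes it belonged to AT2G33850, which read 3.98, 3.90 and 3.87 in wild type and 8.06, 8.04 and 7.81 in cs26 in long days. In short days AT2G33850 read 3.76, 3.84 and 3.78 in wild type and 3.77, 3.64 and 3.73 in cs26. Only the cs26 long-day arrays were high, 4.05 ± 0.084 (SE) above wild type or 16.6-fold. AT2G04460 followed with 4.44, 4.33 and 4.38 in wild type and 7.63, 7.81 and 7.66 in cs26 in long days, and 4.43, 4.53 and 4.29 in wild type and 4.33, 4.29 and 4.54 in cs26 in short days. The short-day arrays of AT2G04460 spanned the range of wild type in long days. AT2G41730 was of the same shape, with 5.94, 6.08 and 6.20 against 8.75, 8.95 and 8.68 in long days, and 5.90, 5.78 and 6.05 in wild type and 6.32, 5.77 and 6.18 in cs26 in short days. Its probe set has the suffix of a design that may also bind other transcripts, as do 5 more of the set that can bind several members of a family.

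PYK10 encodes the main beta-glucosidase of ER bodies, compartments known for defence and best studied in seedlings and roots. It read 3.86, 4.15 and 3.71 in wild type and 6.64, 6.63 and 6.53 in cs26 in long days, a difference of 2.69 (6.47-fold). In short days it read 3.93, 3.93 and 4.00 in wild type and 3.95, 3.90 and 3.97 in cs26. All arrays but the 3 of cs26 in long days lay at or below 4.15, which is under the 25th percentile of all probe sets in wild type (4.29). The other beta-glucosidase genes, looked up after the values were seen, did not move as a group. Of 20 measured, 2 rose and 3 fell in long days, against 12.8% and 11.8% of all probe sets. BGLU25, the gene next to CS26, rose in both photoperiods, by 3.82 and 3.32. NAI1, the factor that controls ER body formation, differed by 0.07 in long days and NAI2, an ER body protein, by 0.25, neither of which passed the test. Among the jacalin-related lectins, proteins that associate with PYK10, JAL33 rose by 0.69 and JAL22 by 0.63 in long days, with short-day differences of -0.08 and 0.03, and JAL34 rose by 1.21 in long days and fell by 0.85 in short days. The fourth measured lectin gene of this family, JAL23, differed by -0.02 in long days, which did not pass the test, and fell by 0.95 in short days.

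**Figure D2:**
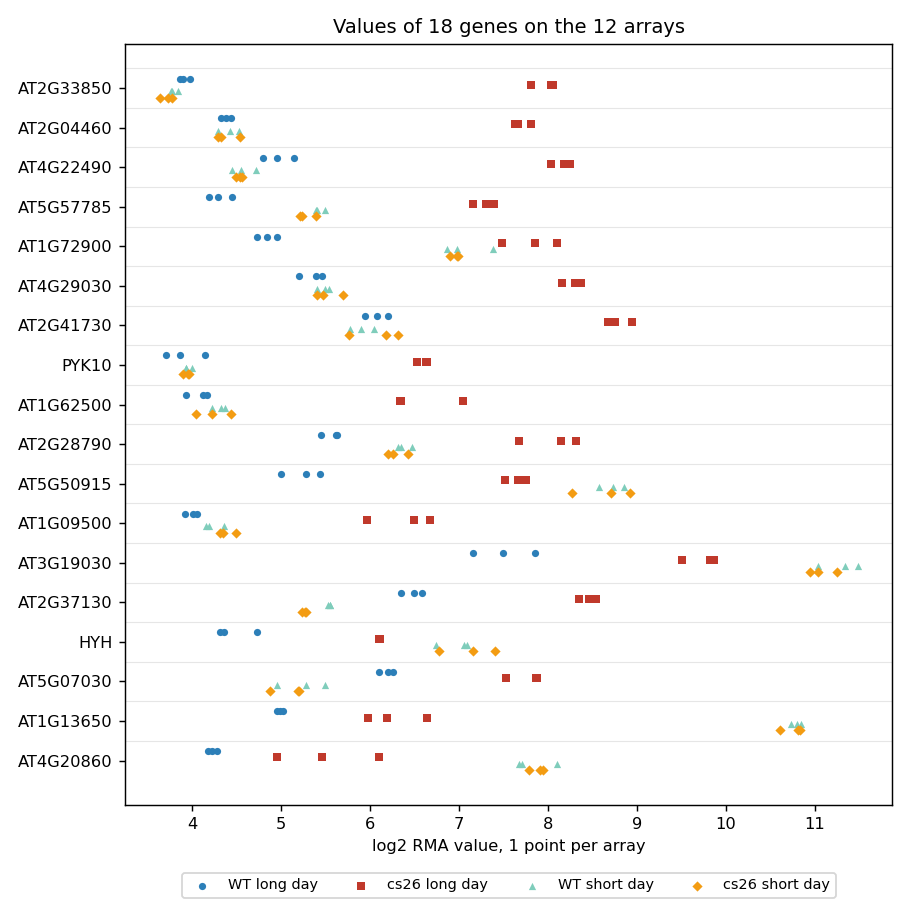
Each point is an array, with its log2 RMA value on the x axis, for 18 named genes (rows) in the 4 groups. In some of the upper rows, such as AT2G33850 and PYK10, only the 3 cs26 long-day arrays are high. The short-day arrays of AT5G57785, AT1G72900 and AT2G28790 lie between the long-day groups. For AT5G50915, AT3G19030, HYH, AT1G13650 and AT4G20860 all short-day arrays lie above the cs26 long-day arrays.

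Of the 33 genes with a known family, 13 were sorted here as genes for secreted and cell wall proteins. This group includes enzymes such as a peroxidase and a GDSL lipase, so its size depends on the sorting. The share of such genes among all measured genes was not counted. For 10 of these 13 the short-day level was near or below that of wild type in long days. AT4G22490, a lipid-transfer protein family member, read 5.15, 4.95 and 4.80 in wild type and 8.04, 8.18 and 8.25 in cs26 in long days, against 4.72, 4.55 and 4.45 in wild type and 4.49, 4.56 and 4.54 in cs26 in short days. AT1G62500, of the same family, read 4.12, 3.93 and 4.17 in wild type and 6.35, 7.05 and 6.34 in cs26 in long days, and 4.23, 4.37 and 4.33 in wild type and 4.44, 4.22 and 4.05 in cs26 in short days. Neither had an array outside cs26 in long days that reached the lowest cs26 long-day array. The thaumatin family protein gene AT2G28790 was 5.59-fold higher in cs26 in long days (5.45, 5.62 and 5.63 against 8.15, 8.32 and 7.68). Its short-day arrays, 6.35, 6.31 and 6.47 in wild type and 6.26, 6.43 and 6.20 in cs26, lay between those groups. The related ATLP-1 was 2.71-fold higher, from a mean of 5.18 to 6.62, with short-day means of 5.19 in wild type and 4.98 in cs26. The GDSL lipase family gene AT5G33370 was 4.99-fold higher, from 4.47 to 6.79.

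AT2G37130 encodes a class III peroxidase, an enzyme type that crosslinks wall polymers. It read 6.50, 6.35 and 6.59 in wild type and 8.35, 8.46 and 8.54 in cs26 in long days, and 5.55, 5.55 and 5.53 in wild type and 5.28, 5.27 and 5.24 in cs26 in short days. The short-day arrays lay below both long-day groups, and the genotypes did not overlap in short days although their means differed by only -0.28. AT5G07030, an aspartyl protease family gene, had the same order, with 6.26, 6.20 and 6.10 in wild type and 7.87, 7.88 and 7.53 in cs26 in long days and 5.49, 4.96 and 5.28 in wild type and 4.88, 5.19 and 5.20 in cs26 in short days. The chitinase family gene AT3G47540 went the other way, with 6.67, 6.31 and 6.64 in wild type and 8.21, 8.13 and 8.04 in cs26 in long days and 8.20 to 8.58 in short days. AT5G19240, for a GPI-anchored glycoprotein, was already bright in wild type in long days (9.85), higher in cs26 (11.33) and highest in short days (12.13 and 11.95). The Ole e 1 family genes AT5G22430 and AT3G16670 were 2.84-fold and 2.44-fold higher in cs26 in long days, and the pectin methylesterase inhibitor family gene AT2G01610 was 2.36-fold higher.

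The 6 genes for regulators and receptors were mostly high in short days in both genotypes: 3 lay above the cs26 long-day level there, 1 near it, 1 between the long-day groups and 1 near wild type in long days. HYH, a bZIP factor that acts with its relative HY5 in light responses, read 4.73, 4.32 and 4.36 in wild type and 6.11, 6.10 and 6.11 in cs26 in long days. In short days it read 7.06, 7.09 and 6.74 in wild type and 7.16, 6.78 and 7.40 in cs26. The bHLH family gene AT5G50915 read 5.28, 5.00 and 5.44 in wild type and 7.52, 7.75 and 7.66 in cs26 in long days, and 8.73, 8.85 and 8.57 in wild type and 8.92, 8.27 and 8.71 in cs26 in short days. For both factors every short-day array lay above every long-day array. AT1G72900 and AT1G72940 encode TIR domain proteins of the resistance protein class. AT1G72900 was 7.85-fold higher in cs26 in long days (4.95, 4.84 and 4.73 against 8.10, 7.48 and 7.86), with 6.98, 6.87 and 7.38 in wild type and 6.99, 6.98 and 6.90 in cs26 in short days. AT1G72940 was 2.65-fold higher (5.97 to 7.37), with short-day means of 8.67 and 8.41. The RING finger gene AT4G17245 was 4.07-fold higher, from 4.77 to 6.79, and read 6.55 and 6.65 in short days. AT1G35710, a leucine-rich repeat receptor-like kinase gene, had the widest error of the set. Its wild-type arrays read 9.02, 8.90 and 8.54 and its cs26 arrays 10.37, 9.72 and 10.06 in long days, while in short days they ran from 7.76 to 9.40, wider than its difference of 1.23 ± 0.383.

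Of the 11 genes for enzymes and transporters, PYK10 among them, 6 had a short-day level near or below that of wild type in long days, and AT3G23550 lay clearly below it. AT1G09500, a cinnamyl alcohol dehydrogenase-like gene, read 4.06, 4.01 and 3.92 in wild type and 6.50, 6.67 and 5.97 in cs26 in long days, and 4.16, 4.19 and 4.36 in wild type and 4.49, 4.31 and 4.35 in cs26 in short days. ACLA-2 encodes a subunit of ATP-citrate lyase, which makes acetyl-CoA in the cytosol, and read 7.37, 7.06 and 7.08 against 8.95, 8.76 and 9.02 in long days. The other measured genes of that enzyme did not move with it, a comparison chosen after the values were seen: ACLA-1 fell in cs26 in long days by 0.91 (adjusted p = 5.299e-04), and ACLB-1 (-0.43) and ACLA-3 (0.29) did not pass the test. CYP71B36, a cytochrome P450, read 4.69, 4.54 and 4.93 against 6.70, 6.05 and 6.68 in long days, and 5.40 to 6.18 in short days, between the long-day groups. Of the 21 other measured P450 genes of the fixed list, 3 rose and 5 fell in cs26 in long days and 3 rose and 2 fell in short days, against 12.8%, 11.8%, 8.89% and 7.84% of all probe sets. Most genes of this list are of the CYP71B subfamily, so these counts do not stand for P450 genes in general. CYP71B35 next to CYP71B36 fell in long days (-0.68) and rose in short days (0.69).

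AT4G20860 and AT1G26380 encode berberine bridge enzyme-like oxidases and differed in short days. AT4G20860 read 4.28, 4.18 and 4.23 in wild type and 6.10, 4.96 and 5.46 in cs26 in long days, and 7.71, 8.10 and 7.67 in wild type and 7.91, 7.79 and 7.95 in cs26 in short days, far above either long-day group. AT1G26380 read 5.19, 4.75 and 5.00 in wild type and 6.33, 6.09 and 6.32 in cs26 in long days, and 4.47 to 4.78 in short days. The remaining genes of this group were the MATE efflux family gene AT3G23550 (3.29-fold), the nitrate and peptide transporter family gene AT1G22570 (2.98-fold), the acyltransferase gene AT5G39080 (2.61-fold), the DJ-1 family gene YLS5 (2.56-fold) and the glutaredoxin gene AT4G15700 (4.92-fold). Outside these groups stood the small heat shock protein family gene AT4G21870 (2.50-fold), the Bax inhibitor family gene AT5G47130 (2.38-fold) and AT5G52720 (2.65-fold), with a heavy metal-associated domain.

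For 14 named genes no role is given here. AT5G57785 read 4.19, 4.29 and 4.45 in wild type and 7.30, 7.39 and 7.16 in cs26 in long days, and 5.39, 5.40 and 5.50 in wild type and 5.21, 5.24 and 5.39 in cs26 in short days, between the long-day groups. AT3G19030 read 7.50, 7.85 and 7.16 in wild type and 9.87, 9.82 and 9.51 in cs26 in long days, and 11.34, 11.04 and 11.48 in wild type and 11.04, 10.94 and 11.25 in cs26 in short days, above both. AT4G29030 was 7.60-fold higher in cs26 in long days. The others were AT2G33850, AT2G04460 and AT2G41730, described above, AT5G20790 (3.52-fold), AT4G38560 (3.51-fold), AT5G16250 (3.20-fold), AT5G19750 (2.46-fold), AT1G13650 (2.43-fold), AT3G02640 (2.42-fold), AT1G12320 (2.37-fold) and AT3G13175 (2.37-fold). The 44 unnamed probe sets had long-day differences from 1.21 to 4.12 with a median of 1.47.

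Because the genotypes differ little in short days, each probe set has a common short-day level, which can be placed between the long-day groups. On a scale with wild type in long days at 0 and cs26 in long days at 1, 55 of the 93 probe sets (59.1%) lay at or below 0.25, near wild type in long days or under it, 18 lay between 0.25 and 0.75, and 20 lay at 0.75 or above. Of the 55, 45 lay within 0.25 of wild type in long days on this scale and 10 lay lower than -0.25, among them AT2G37130, AT5G07030, AT3G23550 and AT3G16670, a split made after the values were seen. Of those 20, 12 lay beyond 1.25, a limit added after the values were seen. Among named genes the numbers were 28, 9, 3 (from 0.75 to 1.25) and 7 (beyond 1.25), and among unnamed probe sets 26, 9, 5 and 4. Many of these transcripts were dim when low: 49 of the 93 lay below the median of all probe sets in wild type in long days and 13 below its 25th percentile, and in short days both genotypes lay below the median for 34. None of the 93 lay below it in cs26 in long days. A dim probe set can hide a difference under its background, so a short-day value within the band says less for those 34 than for bright ones.

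**Figure D3:**
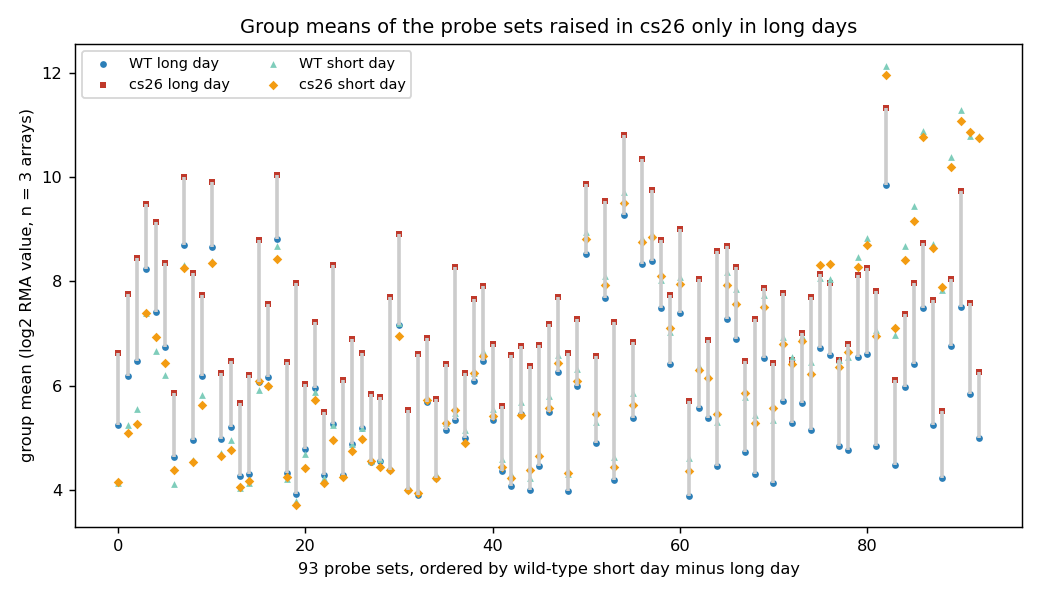
Group means (log2 RMA value, n = 3 arrays) of the 93 probe sets, ordered from left to right by wild type in short days minus wild type in long days, with a grey bar from wild type to cs26 in long days. At the left the short-day means lie near or below the blue wild-type long-day points, and for the 12 probe sets beyond 1.25, all at the right, they lie above the red cs26 long-day points.

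Whether wild type itself differs between photoperiods was not part of the rule, although the wild-type arrays of both photoperiods also enter the rule. The comparison is therefore not independent of how the set was chosen. In the fit over all probe sets, 44 of the 93 were higher and 10 lower in short than in long days in wild type, and 39 did not pass the test. That is 47.3% higher and 10.8% lower, against 21.8% and 23% of all probe sets. The median difference was 0.29, against -0.01 over all probe sets. The rule favours wild-type long-day values that came out low, which raises this difference by an amount that was not measured. The wild-type arrays of the photoperiods did not overlap in 49 of the 93 with short days above (27% of all probe sets) and in 13 with short days below (28.1%). Without overlap, wild type in short days lay above cs26 in long days in 13 of the 93 (25.7% of all probe sets) and below it in 72 (27.6%), but the rule chose high cs26 long-day values, so nothing is read from these last counts. The Bacillus controls given above differ between the photoperiods by more than between the genotypes, and their part was not tested.

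AT1G13650 had the largest difference between photoperiods in wild type. It read 5.02, 4.99 and 4.95 in wild type in long days and 10.84, 10.80 and 10.73 in short days, a rise of 5.80 ± 0.135 (55.8-fold, adjusted p = 9.39e-12). Its cs26 arrays read 6.19, 5.98 and 6.64 in long days and 10.83, 10.61 and 10.81 in short days, so the long-day gain of cs26 was a small part of the short-day level. AT3G19030 rose by 3.78 ± 0.171 (adjusted p = 2.633e-09), AT4G20860 by 3.60 ± 0.215 (adjusted p = 3.739e-08) and AT5G50915 by 3.48 ± 0.158 (adjusted p = 2.728e-09). AT1G72940 rose by 2.71, HYH by 2.49, AT5G19240 by 2.29, AT1G72900 by 2.24, AT3G47540 by 1.92 and AT4G17245 by 1.78, all in wild type. The unnamed probe set 259751_at rose by 4.95, from 5.85 to 10.79.

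The 4 named genes that were lower in short than in long days in wild type were AT5G07030 (-0.94 ± 0.142, adjusted p = 1.583e-04), AT2G37130 (-0.94 ± 0.081, adjusted p = 1.167e-06), AT3G23550 (-0.74 ± 0.093, adjusted p = 3.334e-05) and AT4G22490 (-0.39 ± 0.103, adjusted p = 0.00785). In total 20 named genes were higher and 23 did not pass the test. PYK10 (0.05), ACLA-2 (0.04), ATLP-1 (0.01), AT2G04460 (0.03) and AT2G33850 (-0.12) were among these 23. The 18 probe sets between the long-day groups and the 20 near or beyond cs26 in long days were all called higher, which largely restates how those classes were defined. Of the 55 near or below wild type in long days 6 were called higher and 10 lower.

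**Figure D4:**
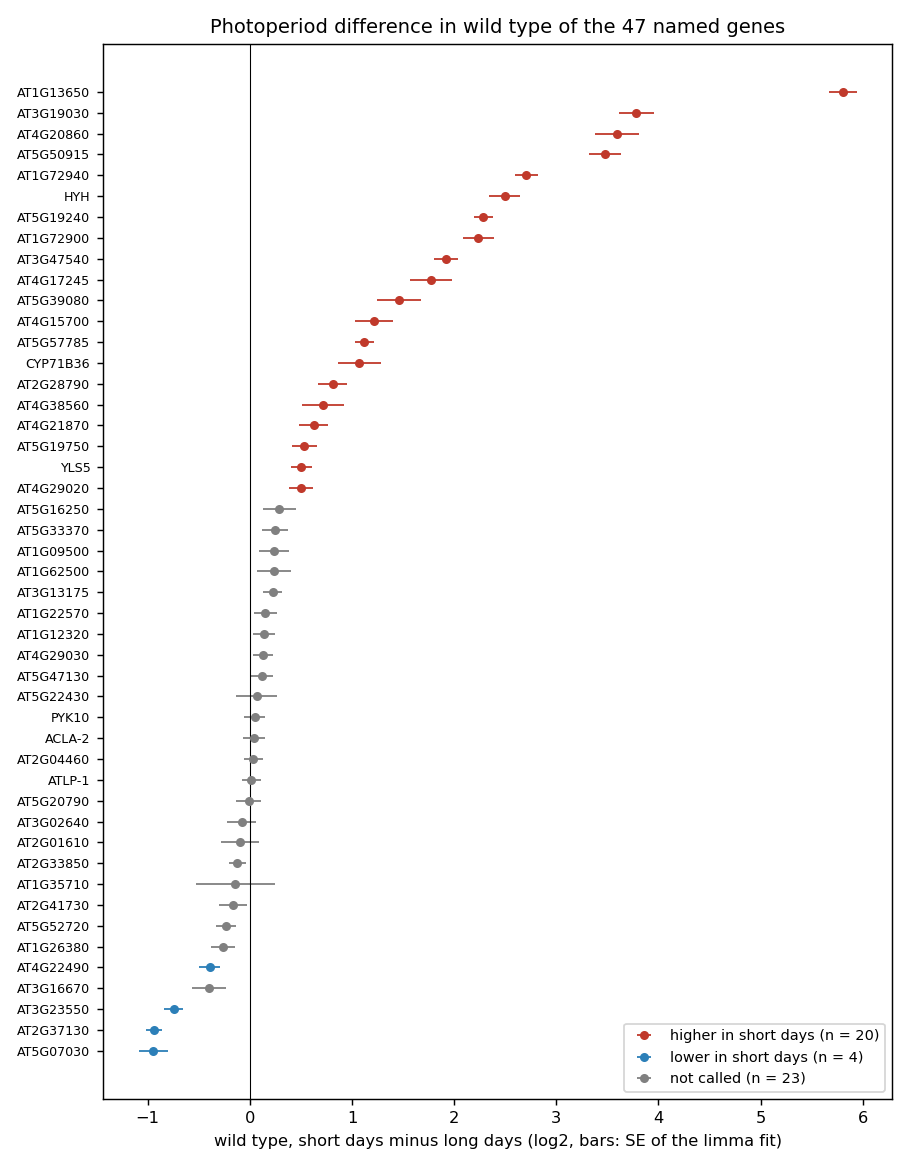
Wild type in short days minus wild type in long days (log2, x axis) for the 47 named genes, with bars for the SE of the fit and colours for the call at an adjusted p under 0.05. From AT1G13650 at 5.80 down to AT4G29020 at 0.50, 20 genes are called higher, and 4 genes at -0.39 to -0.94 are called lower.

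The mean of both genotypes in short days minus the mean of both in long days was called higher for 21 and lower for 61 of the 93, against 25.8% and 27.9% of all probe sets. The errors of this comparison are independent of those of the differences the rule used. Its size is not, since the cs26 long-day level enters it, and a probe set at the wild-type long-day level in short days must come out below 0. The lower count is therefore fixed in part by the rule. Among named genes the largest values were 5.14 for AT1G13650 and 2.99 for AT4G20860, and the smallest were -2.19 for AT2G33850 and -2.06 for AT2G37130.

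Several members lie beside related genes on the chromosome, and values of neighbours were not used by the rule unless they are members too. Of 44 members with a measured gene within 3 places in the gene table, 10 had such a neighbour at a long-day difference of 1.2 or more (22.7%, against 5.71% of the 11867 genes with a measured neighbour). For 2 of the 10 that neighbour was itself a member. With members left out as neighbours for all genes, the count was 8 of 44 (18.2%), with AT1G72920 counted for 2 of them, against 4.70% of all genes. This window was chosen after the values were seen, related neighbours may share labelled RNA on their probes, and no test was made. The counts take any neighbour, of the same family or not. MSRB9 near AT4G21870 rose by 3.22 in long days and fell in short days (-1.70). AT5G52750 near AT5G52720 rose by 2.25 in long days and also fell in short days (-1.19). AT4G38540 near AT4G38560 rose by 1.65 and AT2G38870 beside YLS5 by 1.43 in long days. Their short-day differences of -0.32 and -0.33 did not pass the test. Falls were not counted, and AT5G22460 near AT5G22430 fell by 3.12 in long days. AT4G29020, which encodes a glycine-rich protein, and AT4G29030 are next to each other and both belong to the set. AT4G29020 read 8.40, 8.08 and 8.50 in wild type and 10.31, 10.33 and 10.41 in cs26 in long days, and AT4G29030 read 5.46, 5.39 and 5.20 against 8.30, 8.37 and 8.16. In short days both genes were near their wild-type long-day levels, with means of 8.83 and 8.76 for AT4G29020. AT4G29030 read 5.50, 5.54 and 5.40 in wild type and 5.41, 5.70 and 5.47 in cs26 there.

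The glutaredoxin gene AT4G15700 belongs to a run of CC-type glutaredoxin genes, small thiol enzymes of plants. It read 4.09, 4.35 and 3.96 in wild type and 6.39, 6.48 and 6.43 in cs26 in long days, and 5.21, 5.48 and 5.35 in wild type and 5.84, 5.04 and 5.86 in cs26 in short days. Its neighbours AT4G15690 and AT4G15680 rose by 1.41 ± 0.223 and 1.36 ± 0.125 in cs26 in long days and measured 0.45 and 0.35 in short days without passing the test, outside the band. In wild type all of these glutaredoxin genes rose in short days, by 1.21, 1.26 and 1.16. For the TIR domain genes AT1G72900 and AT1G72940 the rule fixed a small short-day difference, so nothing is read from a contrast with their neighbours there. AT1G72920, between AT1G72900 and AT1G72940, rose by 2.08 in long days and fell by 0.58 in short days, and AT1G72950 rose by 0.32 and fell by 1.14. The short-day differences of AT1G72900 and AT1G72940 were -0.12 and -0.26. AT1G72890, next to AT1G72900, rose by 0.87 in long days, and its short-day difference of -0.26 did not pass the test. Beside AT1G26380, the oxidase gene AT1G26390 rose by 2.42 in long days and fell by 0.93 in short days, and AT1G26400 differed by -0.05 in long days without passing the test.

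The 25 fixed gene lists were matched by gene symbol or by a short set of loci, so they miss genes known only by a locus number, among them the MATE gene AT3G23550, the receptor-like kinase gene AT1G35710, the peroxidase gene AT2G37130 and the RING finger gene AT4G17245. The 8730 unnamed probe sets could not be matched either, so a list can hold only a part of its family. Of the 161 genes so matched, CYP71B36 was the 1 member, and 4 lists matched no measured gene. Over all probe sets 12.8% were called higher and 11.8% lower in long days, and 8.89% and 7.84% in short days. Of 14 measured calcium signalling genes, 8 rose and 0 fell in long days (limma, with 0 lower also at an unadjusted p under 0.05), with a median of 0.74, and 1 rose and 6 fell in short days. Another list held 6 genes for folding in the endoplasmic reticulum and for the response to unfolded proteins there. Of these 6, 4 rose and 0 fell in long days (limma, 0 lower at an unadjusted p under 0.05), and 2 fell in short days. The chaperone genes ATERDJ3B (1.40) and CRT1b (1.27) and the transcription factor gene BZIP60 (0.73) were among the 4. Of 14 glutathione transferases 0 rose and 4 fell in long days, and 0 rose and 3 fell in short days (limma, 0 higher at an unadjusted p under 0.05 in either). Most of these 14 have symbols from GSTU15 to GSTU28, so the counts do not stand for glutathione transferases in general. Of 47 UDP-glycosyltransferases 5 rose and 9 fell in long days, and 9 rose and 2 fell in short days. Of 6 WRKY factors 3 rose and 0 fell in long days, and 0 rose and 4 fell in short days. For 6 genes of the mitochondrial retrograde response these counts were 4 and 0, and 0 and 1. For 10 ribosome biogenesis genes they were 4 and 0, and 6 and 0. For 10 autophagy genes they were 1 and 2, and 0 and 7. Not every list is given here. The median long-day difference over all probe sets was -0.01.

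The limits of the rule cut a continuous range. Among named genes, just inside the long-day limit were AT1G35710 (1.23) and AT2G01610 (1.24), and just outside it were AT4G34150 (1.19) and AT2G04070 (1.18). At the lower short-day limit AT2G37130 (-0.28) and AT2G01610 (-0.27) were inside and AT4G32870 (-0.31) and AT5G55420 (-0.32) outside. At the upper limit AT5G39080 (0.29) and AT3G23550 (0.27) were inside, and the glutaredoxin gene AT4G15680 (0.35) and SWEET2 (0.41) were outside.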

How the data were processed

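Log2 RMA values of 12 Affymetrix ATH1 arrays, as deposited by the authors, were used as given. The submitters' processing notes name RMA and the affy package, with versions not given in the sources used here. The table holds 22810 probe sets, of which 64 controls were left out. Names came from the platform annotation (13513 probe sets with 1 gene, 503 with several, 8730 unnamed), with symbols and gene order from the TAIR10.1 gene table. Promoter and protein sequences were not used here.

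Groups followed genotype and photoperiod in the labels. A model with a mean per group was fitted to all 12 arrays with limma 3.58.1 (lmFit, eBayes, R 4.3.3), with Benjamini-Hochberg adjustment over 22746 probe sets. A call is an adjusted p under 0.05. Errors of differences are standard errors of this fit. The fit was tested on simulated data. Any member naming 1 gene could be named. Values on every array were given for the named genes with the 12 largest long-day differences and the 4 largest and 4 smallest photoperiod differences of both genotypes together, and others were added. The members, the 25 lists and the families were chosen with earlier results of these data known, and support nothing independently. Ribosomal protein genes were recognised by locus, and unnamed probe sets could not be checked for them. In most pairs, samples with the same replicate number did not deviate together (correlations from -0.31 to 0.162, over 0.1 in 2 of 18 pairs).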

Additional observations from a re-analysis of the deposited data

Results flagged for a closer look

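The 25S ribosomal RNA control probe set, which is outside all comparisons, was at 9.64 on 1 array, the second wild-type replicate of the long-day plants. The other 11 arrays ran from 4.53 to 5.12. That array enters the rule, and without it 39 members instead of 44 are called higher in short days in wild type. The drop is not particular to that array. Without replicate 1 of wild type in long days the count was also 39, and without replicate 3 it was 44.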

How the results depend on the processing

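Leaving out each array in turn gave 88 to 105 probe sets by the rule, of which 81 to 90 were among the 93, and quantile normalisation again gave 93, with 87 shared. The number moved with the limits: 149 and 50 with a long-day limit of 1 and 1.5, and 170 with a short-day band of 0.5 (67 with 0.2). Requiring an adjusted p under 0.05 in long days as well left 93, and leaving out dim probe sets left 65. The counts of members called in wild type, 44 higher and 10 lower in short days, ran from 39 to 46 and from 9 to 11 without each array. With the replicate block they were 44 and 10, and the mean over genotypes gave 21 and 61, so the block changed no such count. Over all probe sets it gave 5216 instead of 5597 calls in long days and 3297 instead of 3806 in short days. A difference of at least 1 left 26 and 1 in wild type and 13 and 21 for the mean over genotypes, and 35 lower for that mean with dim probe sets left out, which removes 28 of the 93 members from the test. Among named genes, over the photoperiod differences and settings tried, 10 results lost their call (8 of them for YLS5, from -0.20 to -0.16, and 2 for the wild-type difference of AT4G38560, 0.57 without the second long-day and 0.50 without the third short-day wild-type array), 15 gained one and 0 reversed. Dim probe sets limit the set, since 34 of the 93 lay below the median in short days in both genotypes. The promoter motif counts planned were not run, because no promoter sequences were used here.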
